A study of Homo sapiens with 4 samples.

Results

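The S100 proteins are small calcium-binding proteins, and 10 of their genes were followed across 4 arrays of MCF10A, a line of human breast epithelium that does not form tumours. The genes are S100A2, S100A3, S100A4, S100A6, S100A7, S100A8, S100A9, S100A11, S100A14 and S100A16. They are a list of symbols made with earlier results of these data known, and each was read by the only probe set that the platform annotation gives to that symbol alone. They are 10 of 20904 genes read in this way. The study compared cells with 1 of 4 stable transfections, 1 array each, to find genes under the control of either oncogene or of the pair. Control cells held LacZ, which encodes a bacterial enzyme. The other cells carried Her2 (the growth factor receptor kinase ERBB2), or PIK3CA with the H1047R change (the catalytic part of a lipid kinase on which such receptors act), or both together. All grew untreated in the same medium, named SFIHE in the labels. The sources used here do not say whether a line was a clone or a pool, nor which promoters drove the introduced genes.

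Most S100 genes lie in a cluster on the long arm of chromosome 1, within a region that also holds genes of the cornified layer of skin. An S100 protein carries a pair of EF-hand loops, usually works as a dimer, and exposes a binding surface for other proteins when calcium rises. Some members act inside cells on annexins, myosin or other partners. Others are released from epithelial or myeloid cells and bind receptors such as AGER and TLR4. In breast and skin epithelium some members mark basal or differentiating cells, and S100A7, S100A8 and S100A9 are known as genes of stressed or inflamed epithelium.

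Values are log2 expression values, so a difference of 1 is 2-fold. With 1 array per group no difference has a replicate check, no SD or test can be given, and precision is limited by the number of arrays. The order of values across arrays below is therefore a description, and which neighbours in it would differ beyond replicate spread is not known. Over all 53617 probe sets the arrays had medians of 1.13 to 1.17 and upper quartiles of 2.48 to 2.62, and values below the upper quartile are called low here. Probe sets differ in their response, so levels of different genes were not set against each other. The probe set annotated to ERBB2 and to MIR4728 went against the labels. It was lowest on the array labelled Her2 (4.29), where the LacZ array read 5.96, and highest on the array labelled mutant PIK3CA (8.48), with 7.39 on the array labelled with both. PIK3CA itself was not analysed here. Directions below follow the labels, and the identity of the single-gene arrays carries this doubt throughout. As a check of the cell type, the basal epithelial markers KRT5 (7.08 to 7.52), EGFR (7.16 to 8.62) and ITGB4 (8.22 to 9.51) were read well above the upper quartile on all 4 arrays. KRT14, a defining basal keratin, was low on 3 arrays (1.47 to 2.24) and read 3.43 on the array labelled with both. The luminal markers ESR1, PGR and FOXA1 were low on all 4.

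On the array labelled with both genes S100A8, S100A9, S100A3 and S100A4 were at their highest and S100A14 and S100A16 at their lowest, while S100A2, S100A6, S100A7 and S100A11 lay between the values of other arrays. The array labelled mutant PIK3CA had the highest values of S100A2, S100A6, S100A7, S100A14 and S100A16. The array labelled Her2 had the lowest values of S100A2, S100A6, S100A7, S100A8 and S100A11. Against the LacZ array, 5 of the 10 genes differed at least 2-fold on the array labelled with both, where 10.9% of all 20904 genes did. Of the 5, 4 were higher (6.49% of all genes) and 1 was lower (4.44%). Because the members were listed with results known, such counts only describe them. Over all 21 S100 genes measured the number was also 5. The array labelled mutant PIK3CA differed in 1 member, S100A7, which was higher (2.61% of all genes were higher and 4.54% differed either way), and the array labelled Her2 in 0 (3.53%).

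**Figure D1:**
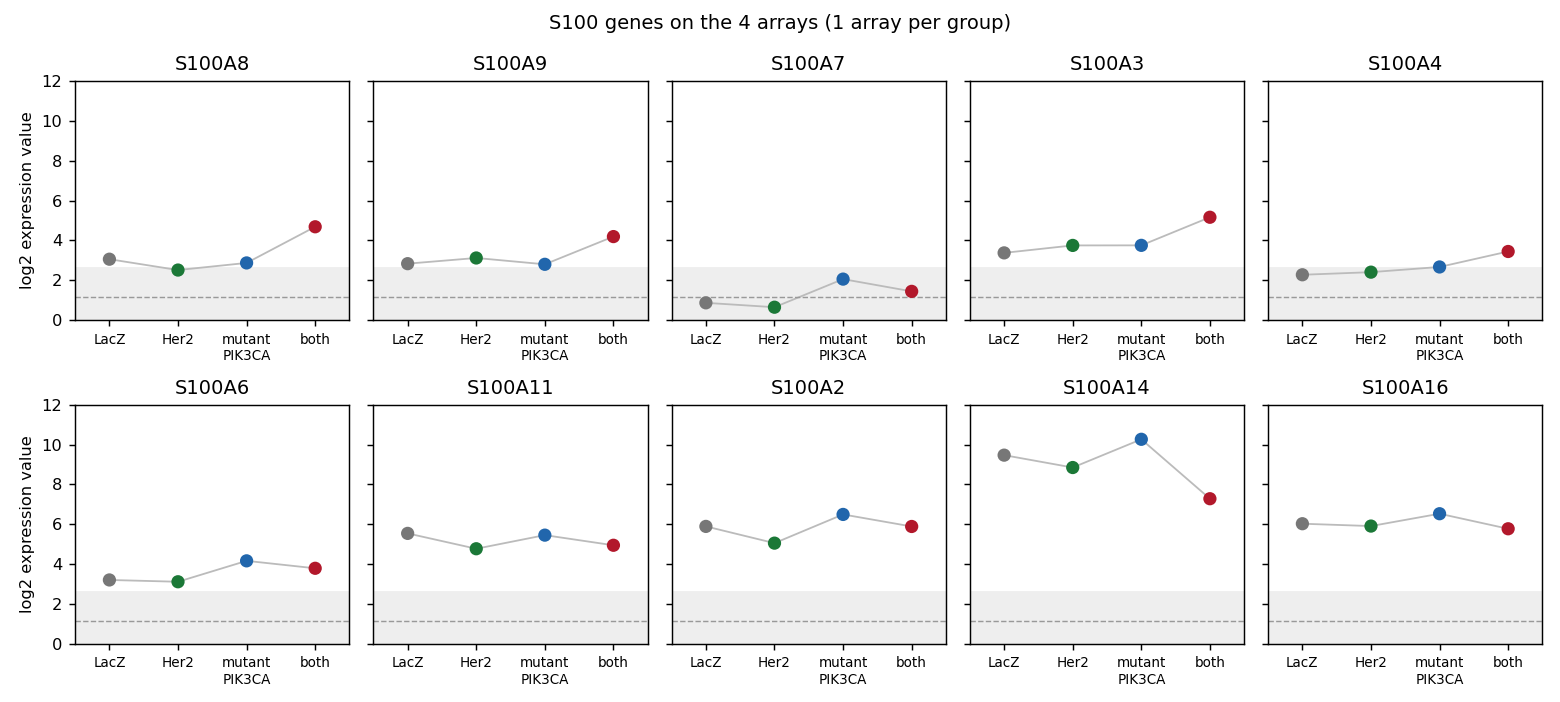
Log2 expression values (vertical axis) of the 10 S100 genes on the 4 arrays (horizontal axis, 1 point per array, with no error because there is 1 array per group). The grey band lies below the highest of the 4 upper quartiles over all probe sets (2.62), the dashed line marks the mean of the array medians, and the thin line only joins the points of a gene; S100A8, S100A9, S100A3 and S100A4 are highest and S100A14 is lowest on the array labelled with both.

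Bases just before the annotated starts are shown for S100A14, S100A8, S100A9 and S100A3, the 4 members with the largest departures from additivity, a measure described further on. They come from RefSeq promoter windows of build GRCh38.p14, matched by symbol, which were found for 10 of 10 members. Each line gives the 250 bases before the start, 5′ to 3′ on the gene's strand, with matches of the motifs searched in capitals. The windows are chr1:153616326-153616575 (minus strand), chr1:153391074-153391323 (minus strand, the one of its 3 windows with TATAAA close to the start), chr1:153357604-153357853 (plus strand) and chr1:153549259-153549508 (minus strand).
S100A14: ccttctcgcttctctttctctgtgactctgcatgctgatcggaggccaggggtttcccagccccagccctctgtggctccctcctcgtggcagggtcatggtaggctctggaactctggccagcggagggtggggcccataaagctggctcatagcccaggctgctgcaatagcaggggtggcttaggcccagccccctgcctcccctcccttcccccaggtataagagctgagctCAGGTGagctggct
S100A8: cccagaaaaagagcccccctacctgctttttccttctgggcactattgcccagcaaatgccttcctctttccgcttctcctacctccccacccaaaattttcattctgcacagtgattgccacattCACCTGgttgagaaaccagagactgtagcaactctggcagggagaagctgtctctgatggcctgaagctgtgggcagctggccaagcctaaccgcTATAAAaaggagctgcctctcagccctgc
S100A9: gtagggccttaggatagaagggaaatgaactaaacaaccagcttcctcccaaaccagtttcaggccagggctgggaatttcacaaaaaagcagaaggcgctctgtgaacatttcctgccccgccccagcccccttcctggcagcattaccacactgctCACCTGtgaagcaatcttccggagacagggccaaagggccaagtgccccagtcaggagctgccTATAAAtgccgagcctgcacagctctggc
S100A3: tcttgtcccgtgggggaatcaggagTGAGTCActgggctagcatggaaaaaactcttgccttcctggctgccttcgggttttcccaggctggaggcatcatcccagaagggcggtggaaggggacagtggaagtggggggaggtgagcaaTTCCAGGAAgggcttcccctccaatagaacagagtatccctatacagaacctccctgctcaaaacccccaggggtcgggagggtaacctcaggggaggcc
In S100A14 the capitals mark CAGGTG, an E-box, at bases -14 to -9 from the start. In S100A8 and S100A9 they mark the same E-box on the other strand (CACCTG) and the TATA box. In S100A3 they mark an AP-1 motif and a STAT motif.

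A search for 6 motifs covered the 250 bases before each start of all 27305 genes with a window. The TATA box, TATAAA, was sought on the gene's strand only. The E-box CAGGTG and the AP-1 motif TGANTCA were sought on both strands. So were a C/EBP core, TTGCNNAA, and a STAT motif, TTCNNNGAA. An NF-kB form, GGG and TTTCC with 2 bases of any kind between them, was also sought on both. No match of one overlapped a match of another in the 4 windows shown. The E-box was found in at least 1 window of 7 of the 10 members, against 20.6% of all genes. The TATA box was found in 4 members (S100A4, S100A7, S100A8 and S100A9), against 8.38% of all genes. AP-1 was found in S100A2 and S100A3 (8.06% of all genes), STAT in S100A3 (8.09%) and the C/EBP core in S100A11 (11.03%). The NF-kB form was found in 0 members (2.12% of all genes). A match is a description of the letters, and members of 1 family can share sequence by descent.

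S100A8 and S100A9 encode the subunits of calprotectin, a heterodimer released by myeloid cells and stressed keratinocytes. S100A8 read 4.68 on the array labelled with both, against 3.05 (LacZ), 2.51 (labelled Her2, below that array's upper quartile) and 2.87 (labelled mutant PIK3CA). S100A9 read 4.19 there, against 2.83, 3.12 and 2.80 in the same order. Both genes were thus highest on the array labelled with both, while the other 3 arrays lay within 0.54 of each other for S100A8 and 0.32 for S100A9. On the array labelled with both, S100A8 was 3.09-fold and S100A9 2.57-fold above the LacZ array (log2 differences of 1.63 and 1.36). Against the array labelled Her2 the differences were 2.17 for S100A8 and 1.07 for S100A9, and against the array labelled mutant PIK3CA 1.82 and 1.39.

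S100A12, the third calgranulin, was low on all 4 arrays (0.80 to 1.20). Myeloid cells, which also express S100A8 and S100A9, were followed by 8 markers. PTPRC, LYZ, ITGAM, MPO and FCGR3A were low on all 4 arrays, PTPRC at 0.53 and LYZ at 0.36 on the array labelled with both. CD14 (1.98, LacZ 2.95) and CSF1R (2.23, LacZ 2.71) were lower there. CD68, a lysosomal protein found in many cells, was higher there (6.78, LacZ 4.68), and it was the only marker of the 8 at least 2-fold higher. The mean of the 8 markers was 1.72 to 1.87 on the 4 arrays.

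S100A7 (psoriasin), an antimicrobial protein of inflamed skin, was low on all 4 arrays. Its highest value was 2.05, on the array labelled mutant PIK3CA, against 0.86 (LacZ), 0.64 (labelled Her2) and 1.44 (labelled with both). The array labelled mutant PIK3CA exceeded the LacZ array by 1.19 and the array labelled Her2 by 1.41. The LacZ array and the array labelled Her2 read S100A7 below their medians over all probe sets. S100A7A, a close paralogue that its probes could also read, had values of 1.11, 0.90, 1.48 and 0.64.

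S100A3, a cysteine-rich protein of the hair cuticle, and S100A4, which binds non-muscle myosin and is known for its part in cell motility, were highest on the array labelled with both. S100A3 read 5.16 on the array labelled with both, against 3.37 (LacZ), 3.75 (labelled Her2) and 3.75 (labelled mutant PIK3CA). The first value was 3.45-fold above LacZ, a log2 difference of 1.79, and stood 1.41 above either single-gene array. Cyclic loess normalization of the counted genes (defined below) ended all of these calls, with 0.30 against LacZ, 0.03 against the array labelled Her2 and 0.31 against mutant PIK3CA. Quantile normalization of the counted genes kept them, at 1.43, 1.27 and 1.54 in that order. Cyclic loess of all probe sets also kept them, at 1.78, 1.42 and 1.38, so the S100A3 differences depend on the processing. S100A4 read 3.44, against 2.27, 2.40 and 2.66 in the same order, the values for LacZ and Her2 below the upper quartile of their arrays. The difference from LacZ was 1.17 (2.25-fold), and that from the array labelled Her2, at 1.04, lay close to the 2-fold line. Quantile normalization of all probe sets put it at 0.98.

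Some fibroblast markers were also higher on the array labelled with both. LUM, a matrix proteoglycan, read 6.26 on the array labelled with both where LacZ read 0.78, and DCN, another, 5.06 where LacZ read 0.73. DPT read 7.86 with both genes by label (LacZ 3.41), and 8.38 on the array labelled Her2. COL1A1, COL1A2 and PDGFRB were low on all 4 arrays. In all, 3 of 6 fibroblast markers were at least 2-fold above LacZ on the array labelled with both (6.49% of all genes were), and the mean of the list was 1.48, 2.22, 1.55 and 3.77 in the order LacZ, Her2, mutant PIK3CA and both. Their part in the S100 differences was not tested. Fewer cells of a type and less RNA per cell cannot be told apart in these bulk samples.

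S100A14, a member found mainly in epithelia, had the widest range of the 10 genes. It read 7.28 on the array labelled with both, against 9.47 (LacZ), 8.85 (labelled Her2) and 10.26 (labelled mutant PIK3CA). All 4 values were far above the upper quartiles. The array labelled with both was thus the lowest, 4.55-fold below LacZ (a log2 difference of -2.19), 2.96-fold below the array labelled Her2 and 7.91-fold below the array labelled mutant PIK3CA. Of all 20904 genes, 0.44% had a lower difference from LacZ on that array. The array labelled mutant PIK3CA, the highest, exceeded LacZ by 0.80 and the array labelled Her2 by 1.42. The epithelial adhesion genes CDH1 and EPCAM were also lowest on the array labelled with both, where CDH1 differed from LacZ by -4.27 and EPCAM by -2.22. KRT18 differed by -0.27 and KRT8 by 0.01, and from the array labelled Her2 by -0.38 and -1.24. KRT8 was low on the LacZ array, and both keratins were low on the array labelled with both. Of 6 basal markers measured, 3 were at least 2-fold below LacZ there (4.44% of all genes were), CDH3 by a difference of -3.24, LAMB3 by -1.67 and ITGB4 by -1.30, and KRT14 was above it. The part of these markers in the S100 differences was not tested.

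S100A2, a protein of basal epithelial cells, and S100A16, which lies beside S100A14 on the chromosome, were read on all 4 arrays. S100A2 read 5.89 (LacZ), 5.05 (labelled Her2), 6.49 (labelled mutant PIK3CA) and 5.89 (labelled with both). Its largest difference, 1.44 (2.72-fold), lay between the single-gene arrays, and the array labelled with both matched LacZ to 2 decimals. S100A16 read 6.03, 5.91, 6.53 and 5.77 in that order. It was highest on the array labelled mutant PIK3CA and lowest on the array labelled with both, as S100A14 was, but its range was 0.76 against 2.98, and it passed 2-fold in 0 of 6 comparisons.

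S100A6 (calcyclin), which binds the ubiquitin ligase adaptor CACYBP and annexins, read 3.20 (LacZ), 3.11 (labelled Her2), 4.16 (labelled mutant PIK3CA) and 3.79 (labelled with both). The array labelled mutant PIK3CA was above LacZ by 0.96, just short of 2-fold (1.00 after cyclic loess of all probe sets), and above the array labelled Her2 by 1.05, just past it. S100A11, a partner of annexin A1 that is also built into the cornified envelope, read 5.54, 4.77, 5.45 and 4.94 in that order. Against LacZ it differed by -0.77 and -0.60 on the arrays whose label holds Her2 (alone and with PIK3CA), and it passed 2-fold in 0 of 6 comparisons.

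Between the single-gene arrays 4 of the 10 members differed at least 2-fold, all higher on the array labelled mutant PIK3CA (S100A2, S100A6, S100A7 and S100A14), where 2.72% of all genes were higher and 5.28% differed either way. In total 9 of 10 members were higher there, but the S100A3 difference of 0.0034 became -0.28 after cyclic loess and -0.27 after quantile normalization of the counted genes, which leaves 8. The members had a median difference of 0.65, against 0.02 over all genes. The share of all genes above 0 in this comparison was not counted. All 10 readings come from the same arrays, so the number higher only describes the listed members. The array labelled with both differed at least 2-fold from the array labelled Her2 in 5 members (7.05% of all genes). S100A3, S100A4, S100A8 and S100A9 were higher (4.41% of all genes) and S100A14 was lower (2.64%). It differed from the array labelled mutant PIK3CA in 4 (8.76%), with S100A3, S100A8 and S100A9 higher (5.28%) and S100A14 lower (3.48%). The median over the members was 0.58 for both against LacZ, 0.45 for mutant PIK3CA against LacZ and -0.17 for Her2 against LacZ, beside -0.04, 0.00 and -0.02 over all genes. Over the 5 members that pass the filter described next, the medians were -0.25, 0.50 and -0.62. The median for both against LacZ thus has the opposite sign without the members that do not pass it.

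**Figure D2:**
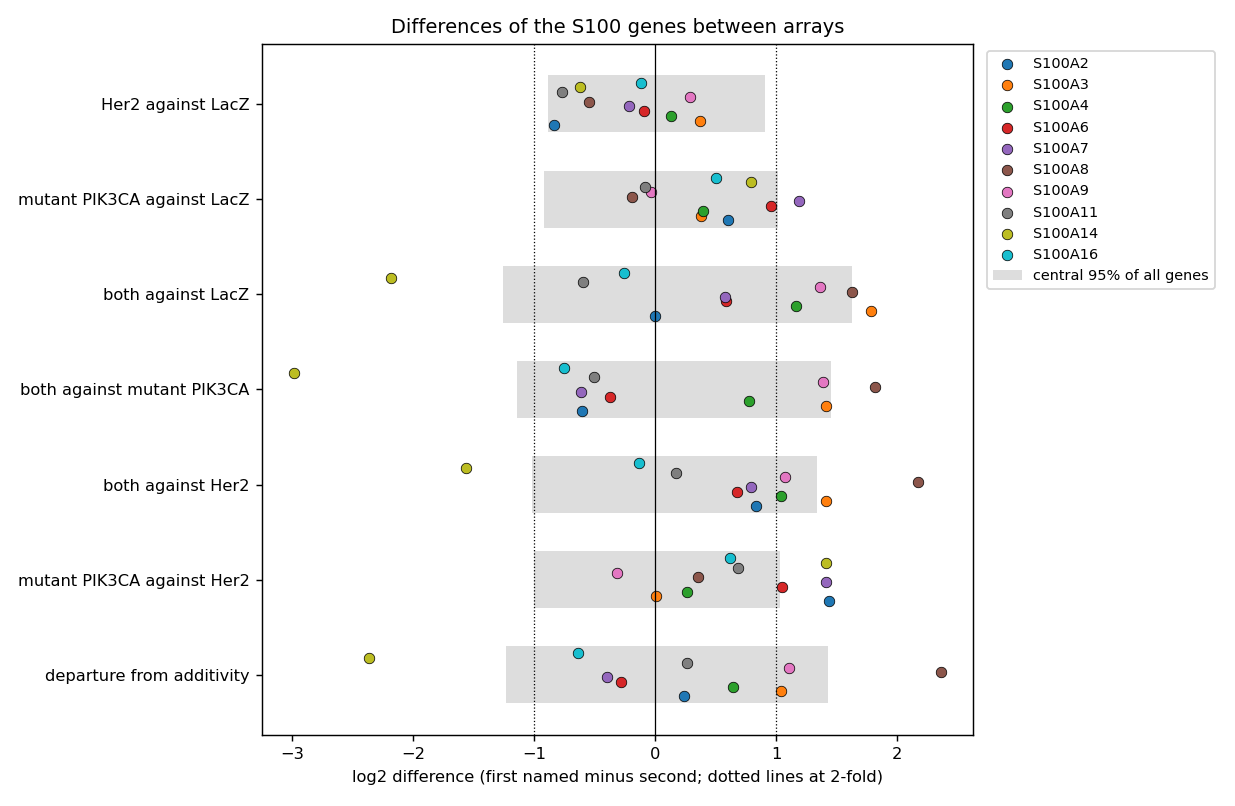
Log2 differences (horizontal axis) of the 10 S100 genes in 6 comparisons of 2 arrays and in the departure from additivity (rows), 1 point per gene. Grey bars span the central 95% of all 20904 genes and dotted lines mark 2-fold. S100A14 lies left of the bar and S100A8 right of it in every comparison with the array labelled with both and in the departure from additivity. Against LacZ S100A8 is only just beyond the bar (1.628, edge at 1.626). S100A3 lies right of it for both against LacZ and both against Her2, and S100A7 for mutant PIK3CA against LacZ. S100A2, S100A6, S100A7 and S100A14 do so for mutant PIK3CA against Her2.

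Many of the 20904 genes were low on all arrays and had little room to differ. A stricter count takes the 4312 genes whose highest log2 value over the arrays is 5 or more, called counted genes here. S100A2, S100A3, S100A11, S100A14 and S100A16 passed, and S100A3 did so only through the array labelled with both, so it had to differ there. Of these 5, the number at least 2-fold different from LacZ was 0 on the array labelled Her2 (5.52% of counted genes), 0 for the label mutant PIK3CA (11.2%) and 2 for the label with both (24.9%). The array labelled with both differed in 2 of them from mutant PIK3CA (18.9%) and in 2 from Her2 (15.2%), in each case S100A3 and S100A14, and the single-gene arrays differed in 2 (9.83%), S100A2 and S100A14.

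The design allows each introduced gene to be read in 2 pairs of arrays that share no array. For the Her2 label these are Her2 against LacZ and both against mutant PIK3CA. In them 9 of 10 members had the same sign, where 11897 of 20904 genes did, and 0 members passed 2-fold in the same direction in each pair (1.04% of all genes did). S100A2 was lower by similar amounts (-0.84 and -0.60), as was S100A11 (-0.77 and -0.51). S100A14 was lower in both but unequally (-0.62 and -2.98). S100A8 was the exception in sign (-0.54 and 1.82). For the mutant PIK3CA label the pairs are mutant PIK3CA against LacZ and both against Her2, and 5 of 10 members had the same sign in them (11549 of all genes), with 0 at least 2-fold in both (1.16% of all genes). S100A7 (1.19 and 0.80), S100A6 (0.96 and 0.68) and S100A2 (0.60 and 0.84) were higher in both, as were S100A3 and S100A4, whereas S100A14 was higher in the first and lower in the second (0.80 and -1.57).

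**Figure D3:**
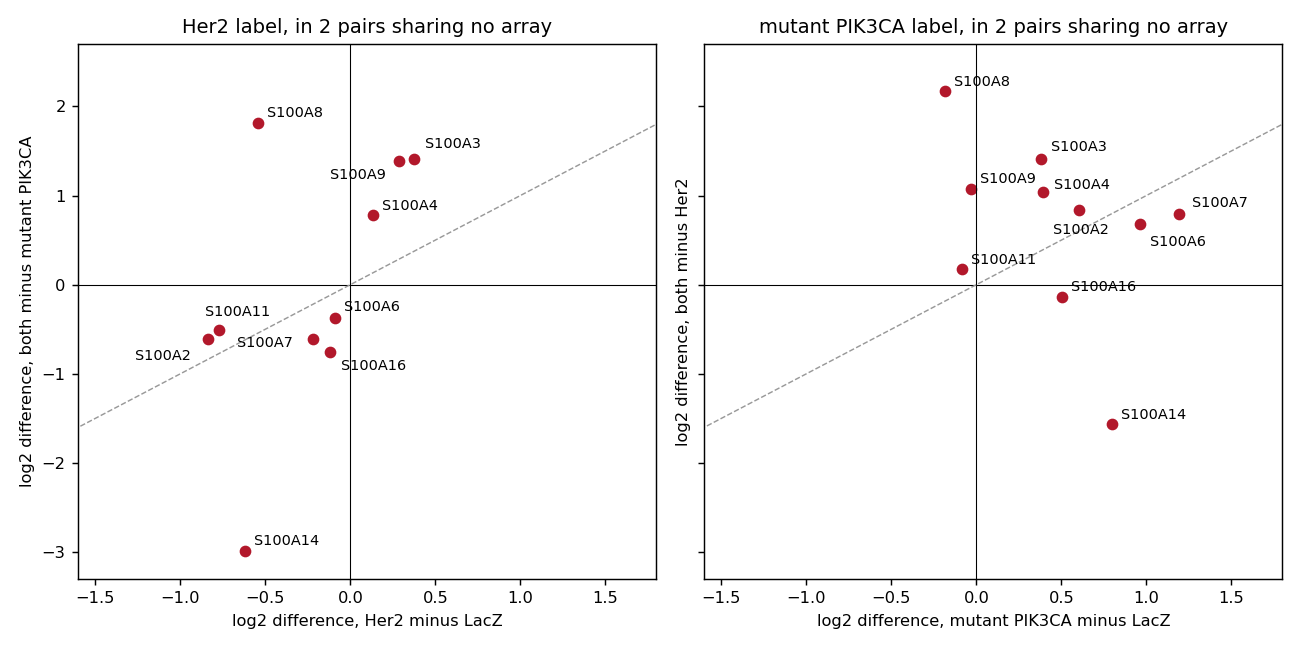
Log2 differences of the 10 S100 genes for the Her2 label (left) and the mutant PIK3CA label (right), each in a pair of arrays without the other oncogene (horizontal axis) and a pair with it (vertical axis), 1 point per gene. Points on the dashed line would have equal differences in both pairs; S100A2 and S100A11 lie near it on the left, S100A8 far above it and S100A14 far below it in both panels.

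Departure from additivity takes the log2 value of the array labelled with both, subtracts the values of the single-gene arrays and adds that of LacZ. It does not change if the labels of the single-gene arrays are exchanged. It was at least 1 in size in 4 of 10 members, against 10.2% of all genes (18.5% of counted genes, with 2 of the 5 counted members, S100A14 and S100A3, the latter counted only through the array labelled with both). S100A8 departed by 2.36, S100A9 by 1.11 and S100A3 by 1.04 (5.81% of all genes departed upward by at least 1), so the array labelled with both read above the sum of the single differences. The S100A3 departure was 0.04 after cyclic loess of the counted genes and 1.38 after quantile normalization of the same genes. S100A14 departed by -2.36, below that sum (4.35% downward). The other 6 members lay between -0.64 (S100A16) and 0.65 (S100A4).

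Along chromosome 1, the 15 S100 genes from S100A9 to S100A1 did not share one direction. On the array labelled with both, S100A4 and S100A3 were above LacZ, S100A2 beside them was level with it, and S100A14 was far below it, with S100A16 (-0.25) on one side and S100A13 (0.29) on the other. CHTOP, a chromatin-associated protein gene that is the next gene beyond the cluster, differed by 0.20. On the array labelled mutant PIK3CA, the run from S100A4 to S100A13 held only differences above 0, from 0.38 to 0.80, and CHTOP differed by 0.48. S100A3 in that run turned to -0.01 after cyclic loess and -0.11 after quantile normalization of the counted genes.

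**Figure D4:**
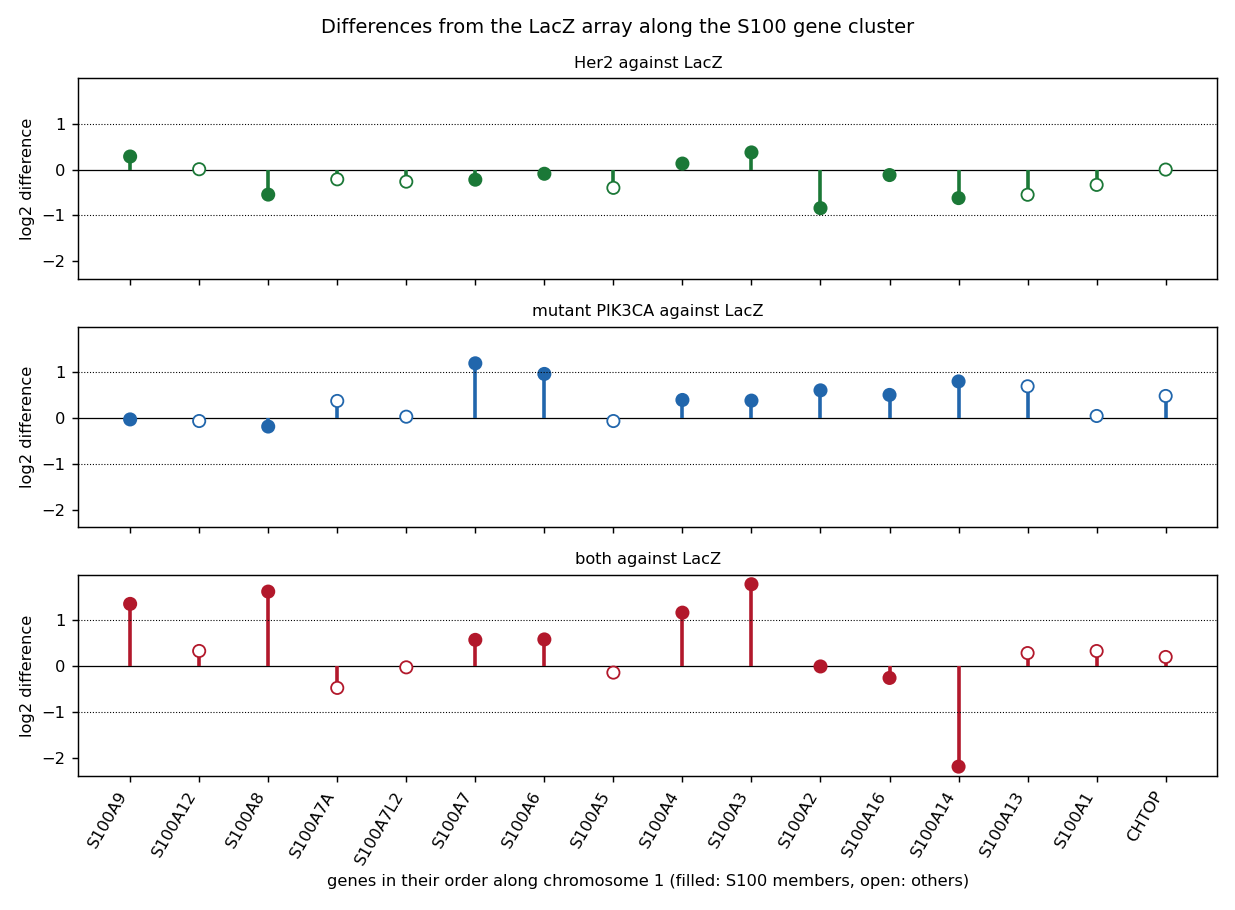
Log2 difference from the LacZ array (vertical axis) of the genes of the S100 cluster in their order along chromosome 1 (horizontal axis, order only, not distance), with a panel for each of the other 3 arrays, 1 array per group. Filled points are the members described here and open points other genes; on the array labelled with both (lower panel) S100A14 lies at -2.19 between neighbours at -0.25 and 0.29.

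The other 11 S100 genes were also measured. S100A10, the partner of annexin A2, read 5.34, 4.90, 5.44 and 5.93 in the order LacZ, Her2, mutant PIK3CA and both, and was 1.03 higher with both than with Her2 alone, by label. S100A13, known for the export of a growth factor that lacks a signal peptide, read 3.59, 3.05, 4.28 and 3.88, with a difference of 1.24 between the single-gene arrays. The other 9 (S100A1, S100A5, S100A7A, S100A7L2, S100A12, S100B, S100G, S100P and S100Z) were low on all 4 arrays, and 0 of them differed at least 2-fold in any comparison.

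Receptors of released S100 proteins were taken from a list of 6. TLR4, a receptor of S100A8 and S100A9, read 3.31 (LacZ), 4.54 (labelled Her2), 3.33 (labelled mutant PIK3CA) and 4.54 (labelled with both). It was thus higher on both arrays whose label holds Her2, by 1.23 and 1.21 in the 2 pairs that share no array. BSG (8.57 to 8.88) and NPTN (6.50 to 7.09) were high on all 4 arrays, whereas AGER, MCAM and CD36 were low on all 4. TLR4 was the only receptor of the 6 at least 2-fold different in any comparison.

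Of 10 listed intracellular partners 9 were measured, and 2 of them were at least 2-fold above LacZ on the array labelled with both (6.49% of all genes were). ANXA6, an annexin bound by several S100 proteins, read 3.58 on the array labelled with both and between 1.07 (LacZ) and 1.75 (labelled Her2) on the others. Those other values were all low, so no exact difference from them is given. PPFIBP1, a liprin that binds S100A4, read 5.80, 6.74, 5.83 and 6.94 in the order LacZ, Her2, mutant PIK3CA and both, higher on the arrays whose label holds Her2. The others differed at least 2-fold in 0 of the 6 comparisons of 2 arrays. ANXA2, the partner of S100A10, departed from additivity by 1.46, with values of 4.60, 4.13, 3.66 and 4.65 in that order. Among the rest ANXA1 lay between 8.27 and 9.01, MYH9, the myosin heavy chain that S100A4 binds, between 8.11 and 8.66, and CACYBP between 3.27 and 4.00.

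For the 3 members with the widest range, the counted genes with the most similar profile were sought outside the S100 family. Likeness was the root mean square difference between profiles over the 4 arrays, each centred on its own mean. With 4 arrays and 4306 genes many profiles come close, so these are descriptions. Closest to S100A14 were PI3, the epithelial antiprotease elafin (0.11), AZGP1, a secreted glycoprotein (0.11), and GPRC5A, an orphan receptor (0.14). PI3 read 7.13, 6.29, 7.62 and 4.79 in the order LacZ, Her2, mutant PIK3CA and both. Closest to S100A8 were NCAPD3, a condensin subunit (0.085), RFC5, a clamp loader subunit (0.089), and LRP8, a lipoprotein receptor (0.091). Closest to S100A3 were ARV1, of sterol transport (0.051), NBN, of DNA break repair (0.066), and IMPA1, an inositol phosphatase (0.074). NCAPD3, RFC5, LRP8, ARV1 and IMPA1 reached 5 only on the array labelled with both. Among genes of such levels the filter keeps those that are high there, so it favours this shape. S100A8 itself is not a counted gene.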

How the data were processed

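RNA of 4 MCF10A lines was measured on 1 Affymetrix array each, from 400 ng of total RNA per the labels' protocols. Per the submitters' processing notes, the authors used RMA and oligo; the values they deposited are log2 expression values. The log base follows from RMA and the range of the values. The sources used here do not give versions, filters or the annotation's build, so coordinates are printed only for RefSeq promoter windows (GRCh38.p14).

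Of 53617 probe sets, 23871 carry a single gene symbol, 1842 carry several and 27904 have no name here. RefSeq gene identifiers served to update symbols. A gene took its probe set with the highest mean. Small RNAs, ERBB2 and PIK3CA were left out of counts. A counted gene has its highest log2 value at 5 or more. Differences of 1 or more were counted. Departure from additivity used all 4 arrays. No test was made between groups. The counting was tested on simulated data, where 200 of 200 planted changes were recovered. These were log2 differences of 2 over small noise, so this checks the counting and not its sensitivity on these arrays. Alternatives were other filters, quantile normalization, cyclic loess (limma 3.58.1, 3 iterations), the mean of all probe sets and a 1.5-fold threshold. Python 3.11.15 and pandas 2.3.3 were used.

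All members and all other S100 genes were named. Receptors, binding partners and genes of the epidermal differentiation complex were named when 2-fold different in any comparison, and further ones as examples after their values were seen. The members and lists were chosen with earlier results of these data known.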

Additional observations from a re-analysis of the deposited data

Results flagged for a closer look

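The effect of a label turned direction with the other oncogene present for a pair of members, with at least 0.5 on the log2 scale each way. These differences were not tested, because each group has 1 array. How many of all genes met the same rule was not counted, so the number of members only describes them. The change between the pairs is the departure from additivity given above, not a further result. For the Her2 label, S100A8 differed by -0.54 without mutant PIK3CA (Her2 minus LacZ) and by 1.82 with it (both minus mutant PIK3CA), a change of 2.36 between the pairs. Its value on the array labelled Her2 (2.51) was below that array's upper quartile. For the mutant PIK3CA label, S100A14 differed by 0.80 without Her2 (mutant PIK3CA minus LacZ) and by -1.57 with it (both minus Her2), a change of -2.36.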

How the results depend on the processing

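No paired analysis was possible because each group has 1 array and the labels give no replicate numbers. The numbers of members at least 2-fold different among those passing the filter were recomputed in the 7 comparisons, the departure from additivity among them. Quantile normalization of the counted genes left all 7 within 1.5 times. The mean of all probe sets could not change these numbers, because each member has only 1 probe set, so it is no check of them. Without a filter the number was 1 for mutant PIK3CA against LacZ (4.54% of all genes) and 4 for mutant PIK3CA against Her2 (5.28%). It was 5 for both against LacZ (10.9%) and 5 for both against Her2 (7.05%). It was 4 for both against mutant PIK3CA (8.76%) and 4 for the departure (10.2%). With the filter at 3 it was 5, 5, 4 and 4 for the last 4 of these, where 23.7%, 14.7%, 18.5% and 18.5% of the genes kept were past 2-fold. With the filter at 7, which keeps S100A14 alone, it was 1 for those 4 (25.2%, 17.5%, 20.3% and 20.5% of the genes kept). It was also 1 for mutant PIK3CA against Her2 (10.3%). With a mean of at least 5, which drops S100A3, it was 1 for each of the same 4 (19.2%, 10.3%, 13.4% and 13.9%). Cyclic loess of the counted genes also gave 1 for each of the 4 (23.0%, 14.1%, 17.1% and 16.7% of counted genes). This was because S100A3 moved to 0.30 for both against LacZ, 0.31 against mutant PIK3CA, 0.03 against Her2 and 0.04 in the departure. The cause was not tested. After cyclic loess of all probe sets, added after seeing the data, S100A3 stayed past 2-fold in these. At 1.5-fold the number was 3 for Her2 against LacZ, 2 for mutant PIK3CA against LacZ, 4 for both against mutant PIK3CA and 4 for mutant PIK3CA against Her2, where 22.3%, 32.1%, 38.1% and 27.5% of counted genes were. Of 23 member differences of at least 2-fold as deposited, 0 turned direction after quantile normalization or cyclic loess of all probe sets, both added after seeing the data. The arrays already had similar medians and upper quartiles, and these settings changed the member differences little. A 2-fold difference thus had little room to turn, so this is a weak check. Signal near background limits S100A7, S100A4 and the S100 genes low on all arrays. Low signal also limits S100A8 (2.51 to 3.05) and S100A9 (2.80 to 3.12) on the arrays other than the one labelled with both. The upper quartiles of those arrays were 2.48 to 2.57. Neither gene reached 5 on any array, so their differences rest on readings near these quartiles.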

Other observations

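Genes of the epidermal differentiation complex, the chromosome 1 region that holds the S100 cluster, were mostly low. Of 14 listed genes of cornified envelopes and fused-type S100 proteins, SPRR1B, a small proline-rich envelope protein, was the one with the widest range. It read 1.12 (LacZ), 0.83 (labelled Her2), 4.42 (labelled mutant PIK3CA) and 2.62 (labelled with both). SPRR1A read 0.71, 1.28, 2.60 and 1.40, and IVL (involucrin) 1.40, 1.13, 2.19 and 2.28, in the same order. All 3 were below the upper quartile on the LacZ array and the array labelled Her2, so no exact difference from those is given. IVL was low on all 4 arrays. The other 11 were also low on all 4 arrays, and 0 of them differed at least 2-fold in any comparison.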
